A study of Homo sapiens with 6 samples.

Results

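The genes described here are established targets of the transcription factor p53, other than MDM2, in RPE-1, a telomerase-immortalised, near-diploid line from human retinal pigment epithelium. They were taken as a list of 35 entries out of the 60252 gene IDs of the count table: 33 p53 target genes, the antisense feature XPC-AS1 opposite to the target XPC, and AL390208.1 opposite to the target SESN1. Of these 35, 31 had enough reads to be tested. GDF15, SESN1, EDA2R and SPATA18 did not, with 11, 58, 49 and 26 counts in all 17 libraries together. BTG2, TIGAR, PPM1D and TRIAP1 would not have passed the filter on low counts without an arrested library. For each of them only 1 library of the other conditions reached the cutoff, so their selection was tilted towards a higher level in arrest.

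The study followed cells from the start of S phase into G2 with the checkpoint kinase ATR active or inhibited, to find transcripts that ATR controls. Cycling cells were asynchronous and had no thymidine. Arrested cells were kept for 24 h in 2 mM thymidine, which depletes dCTP and stops DNA synthesis, and were not released. The 4h_DMSO and 6h_DMSO cells were held in the same thymidine block, washed 3 times, and collected 4 h and 6 h after release, with the solvent DMSO present from 1 h after the wash. The 4h_ATRi and 6h_ATRi cells had the ATR inhibitor AZ20 at 2 µM in place of DMSO, for 3 h and 5 h. Each condition had 3 libraries, from independent experiments A, B and C, except 6h_ATRi with the libraries of experiments A and B. All are cultures of this 1 immortalised line.

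p53 is held at a low level by MDM2, which marks it for destruction. Kinases that sense damaged or stalled DNA free p53 from MDM2, and p53 then binds response elements in its target genes. The targets stop the cell cycle, limit growth signalling, supply and repair DNA, adjust metabolism or prepare apoptosis, and some of them feed back on p53 itself. RPE-1 cells keep a functional p53 pathway and are widely used to study it. The kinase ATR acts on stalled replication forks and can phosphorylate p53 directly or through its effector CHK1.

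Library totals ran from 1758747 to 2357561 counts, so 1 count was worth about 0.492 CPM, the unit of level used here (counts scaled so that every library has the same total), and many members had few reads. The libraries of experiment B stood apart from the others on the first principal component, which held 27.0% of the variance. Reads came from a kit that keeps the strand, but the strand setting of the counting is not given in the sources used here, and 13 of the 35 members share exon sequence with a counted feature on the opposite strand. For those 13, reads that fall in the shared bases cannot be assigned to the member or its partner, and the shared part runs from 4 bases in POLH to 1140 in XPC and XPC-AS1. The unknown setting also touches the other 22 members. Whether the counts of any member come from its own strand was not tested. Of 14 listed markers of the retinal pigment epithelium, the 9 with no opposite feature were low. BEST1, TYRP1, PMEL, KRT8 and KRT18 have an opposite feature, and their levels are not given here. The summed level of the 9 markers with no opposite feature ranged from 19.9 to 42.1 CPM across libraries, 4 of these 9 reached a mean of 1 CPM, and RPE65, RLBP1, DCT, LRAT and TTR were at or near 0. Of the markers of other cell types with no opposite feature, CDH5 of endothelium and CD3E of T cells had 0 counts, immune markers summed to at most 1.82 CPM and neuronal markers to 0.539 to 5.97 CPM. Photoreceptor markers summed to 5.6 to 19.8 CPM, which was CRX. Their part in the results was not tested.

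Across the 31 measured members, the level was lowest in cycling cells, highest under thymidine, and in between after release. The mean log2 CPM was 3.20, 3.30 and 3.41 in the cycling libraries of experiments A, B and C. It was 4.07, 4.53 and 4.16 in the arrested libraries. It was 3.45, 4.09 and 3.73 in 4h_DMSO and 3.45, 3.74 and 3.67 in 6h_DMSO. The cycling and arrested libraries did not overlap, and within each experiment the arrested library was the highest of those without inhibitor. With the inhibitor the mean was 3.58, 3.80 and 3.80 at 4 h and 3.49 and 3.79 at 6 h, which lay inside or close to the range of the matched DMSO libraries. Condition means differed by 0.95 between arrested and cycling cells, by -0.50 and -0.64 between arrested cells and DMSO cells at 4 h and 6 h, and by -0.03 and 0.02 between inhibitor and DMSO at 4 h and 6 h.

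**Figure D1:**
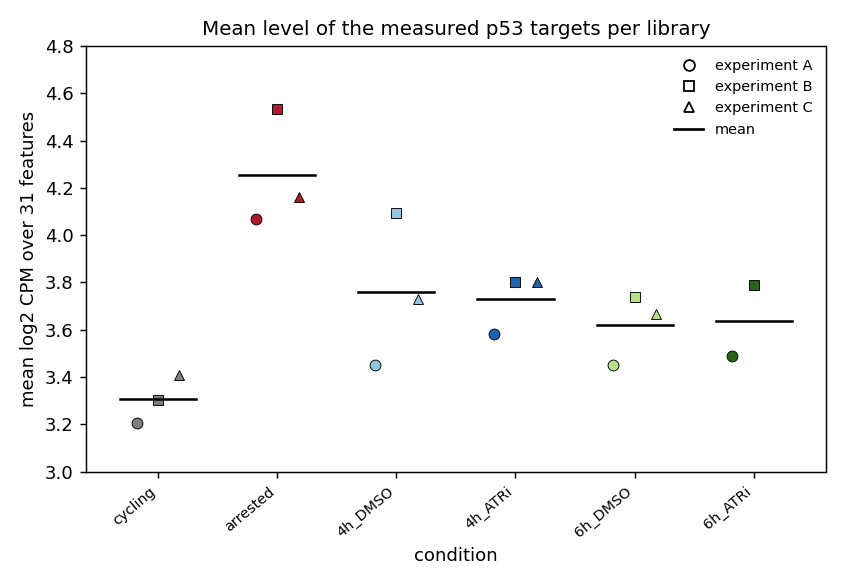
Mean log2 CPM over the 31 measured p53 target features (y axis, starting at 3) in each library, by condition (x axis), with circles, squares and triangles for experiments A, B and C and a line at each condition mean. Cycling libraries lie between 3.20 and 3.41 and arrested libraries between 4.07 and 4.53.

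Comparison of arrested with cycling cells asked how the targets stand in cells stopped at the start of S phase. In thymidine 8 of the 31 measured members rose and 0 fell: CDKN1A, GADD45A, BBC3, ZMAT3, PHLDA3, FAS, XPC-AS1 and AL390208.1. Over all 13510 features tested, 0.6% rose and 0.429% fell (edgeR's quasi-likelihood test, Benjamini-Hochberg adjusted p under 0.05). At an unadjusted p under 0.05 there were 16 members, all higher in arrest, against 4.96% of all features. Fold changes on the log2 scale were above 0 for 29 of the 31, against 48.6% of all features, and their median was 1.08, against -0.01 over all features. The 2 members below 0 were PLK2 (-0.25) and PIDD1 (-0.15). Arrested and cycling libraries did not overlap, with arrested higher, for 19 members, against 7.32% of all features. The median difference between arrested and cycling libraries within experiments A, B and C was 0.81, 1.00 and 0.60. Among the 24 members with a mean of at least 10 counts per library, a restriction chosen after seeing the data, 8 rose, 22 were above 0 and the median was 0.88. With the block 11 of these 24 rose. Without experiment B 7 members rose in arrest, against 1.14% of all features.

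Among the genes of cell cycle arrest and growth control, 2 of 7 measured rose, and the median log2 fold change was 1.21. CDKN1A encodes p21, the inhibitor of cyclin-dependent kinases through which p53 stops the cycle. Its level was 16.0, 15.4 and 8.21 CPM in cycling libraries A, B and C and 51.6, 134.7 and 48.8 CPM in arrested ones. Every arrested library was above every cycling one, and experiment B was far above the other arrested libraries. On the log2 scale the difference was 2.57 ± 0.54 (SE), with an adjusted p of 0.0437, and 1.5e-15 with the experiments as a block. The call without the block was lost without cycling A (2.75, adjusted p = 0.145), cycling B (2.71, 0.155), cycling C (2.34, 0.167) or arrested B (1.93, 0.0865). CDKN1A has an annotated opposite neighbour, ENSG00000285244, that shares 146 bases with it and is not among the counted features.

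GADD45A, a small protein that binds PCNA and stress kinases, was at 9.31, 11.5 and 19.8 CPM in cycling libraries and at 26.7, 34.3 and 44.7 CPM in arrested ones. The arrested libraries were all higher, and C was the highest of both conditions. Its log2 fold change was 1.39 ± 0.30 (adjusted p = 0.0188). Without cycling A, cycling B or arrested C the adjusted p was 0.145, 0.0915 and 0.112. BTG2, an antiproliferative cofactor of mRNA deadenylation, had 0, 0.996 and 0.483 CPM in cycling libraries and 5.93, 3.48 and 4.57 CPM in arrested ones. These are a few reads per library, and the fold change (3.12 ± 1.14, adjusted p = 0.296) was called only once the experiments were blocked (adjusted p = 0.0155). CCNG1, the atypical cyclin G1, was at 3.99, 5.98 and 7.24 CPM against 10.1, 16.4 and 13.2 CPM, with no overlap, and was likewise called only once blocked (1.21 ± 0.38, with adjusted p = 0.171 before and 0.0283 after). PPM1D, the phosphatase WIP1 that reverses p53 activation, had 1.99 to 3.38 CPM in cycling and 3.56 to 6.46 CPM in arrested libraries (0.92, adjusted p = 0.779). PLK3, a stress-activated polo-like kinase, ran from 0.996 to 3.10 CPM and from 2.97 to 7.11 CPM. DYNLT4, which shares 78 bases with PLK3 on the other strand, rose from 19.6 ± 3.09 to 65.8 ± 38.1 CPM (SD, n = 3 each). The log2 fold change of DYNLT4 was 1.75 ± 0.30 (adjusted p = 0.00326). PLK2, a polo-like kinase of centriole duplication, went from 111.7, 101.1 and 86.0 CPM to 84.2, 79.5 and 86.9 CPM, with overlap. GDF15, a secreted stress hormone and in many cells a strong p53 target, had 0 counts in all cycling libraries and 0.497 to 1.02 CPM in arrested ones, which is too little for a comparison.

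Of 10 measured apoptosis effectors 3 rose, with a median log2 fold change of 0.98. BBC3 encodes PUMA, the BH3-only protein that disarms BCL2 and its relatives. It was at 1.77, 0.996 and 0.483 CPM in cycling libraries and at 7.12, 16.9 and 11.7 CPM in arrested ones. The conditions did not overlap, and the lowest library held 1 read. Its log2 fold change, 3.37 ± 0.57, was the largest of the 31 members (adjusted p = 0.00156), and the call held in every alternative that gave an adjusted p. BBC3 shares 80 bases with the microRNA gene MIR3190 on the other strand, which went from 1.59 ± 0.31 to 10.03 ± 4.36 CPM (SD, n = 3 each; log2 fold change 2.62 ± 0.68, adjusted p = 0.0588).

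ZMAT3, a zinc finger RNA-binding protein and regulator of splicing, had the tightest arrested replicates of the called effectors. It was at 9.75, 10.5 and 12.1 CPM in cycling libraries and at 22.0, 27.8 and 25.4 CPM in arrested ones (1.22 ± 0.26, adjusted p = 0.0179). The call was lost without cycling A (0.108), cycling B (0.0639) or arrested B (0.0796). PHLDA3, a small membrane-binding repressor of AKT, was at 14.2, 11.5 and 13.0 CPM and then at 25.5, 42.7 and 19.8 CPM (1.18 ± 0.30, adjusted p = 0.0444). Its libraries did not overlap, but much of the difference came from arrested B. Without that library the log2 fold change was 0.82 (adjusted p = 0.387), without all of experiment B it was 0.74 (0.326), and without cycling A, cycling B, cycling C or arrested A the adjusted p was 0.139, 0.196, 0.149 and 0.0750.

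BAX, the pore-forming protein of the mitochondrial outer membrane, was at 7.09, 8.97 and 8.69 CPM in cycling libraries and 9.49, 27.8 and 13.7 CPM in arrested ones. Its call came only from the blocked fit (1.05 ± 0.35, adjusted p = 0.206 unblocked and 0.0365 blocked), and here too arrested B was the highest. PMAIP1, which encodes the BH3-only protein NOXA, was at 1.99 to 2.90 CPM and then 4.97 to 8.90 CPM, without overlap but with few reads (1.44 ± 0.56, adjusted p = 0.342). The other 5 effectors, TP53I3, AEN, PIDD1, TRIAP1 and TP53INP1, did not reach an unadjusted p of 0.05.

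The death receptors were represented by 3 measured members, of which 1 rose. FAS is the surface receptor for FAS ligand, and TNFRSF10A and TNFRSF10B are receptors for TRAIL. FAS was at 78.0, 44.3 and 76.8 CPM in cycling libraries and at 143.6, 209.8 and 161.1 CPM in arrested ones. No library overlapped, and B was the lowest cycling and the highest arrested library. The rise was 1.37 ± 0.19 on the log2 scale (adjusted p = 1.1e-04) and was called in every alternative run. FAS shares 380 bases with ACTA2, smooth muscle actin, on the other strand. ACTA2 was at 15.8 ± 4.39 CPM in cycling and 26.8 ± 5.63 CPM in arrested cells (SD, n = 3 each), with a log2 fold change of 0.77 ± 0.37 (adjusted p = 0.502). TNFRSF10A and TNFRSF10B did not reach an unadjusted p of 0.05, and EDA2R, a receptor of the same superfamily, was never above 2.51 CPM. TNFRSF10A shares 224 bases with TNFRSF10A-AS1 on the other strand, which did rise in arrest. TNFRSF10A-AS1 went from 9.80 ± 1.98 to 26.0 ± 4.34 CPM (SD, n = 3 each), without overlap (adjusted p = 0.0138). The part of TNFRSF10A-AS1 in the level of TNFRSF10A was not tested.

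FAS is also 1 of 3 members with a match to the p53 consensus in the promoter window, and the sequence is shown because FAS was the most firmly called protein-coding member. Windows ran from 250 bases before to 50 bases after the annotated start, in the RefSeq table of GRCh38.p14, and 26 member genes had a window. The search was for the palindromic p53 consensus, a pair of half-sites with no spacer, with at most 2 mismatches and none at the C and G of either core, which reads the same on both strands. It matched in 3 of 35 member windows (8.57%) and in 100 of all 35116 windows (0.285%). A match is a run of letters and not evidence of binding. Excerpts are on the plus strand, 5′ to 3′, with the match in capitals: FAS at chr10:88991304-88991333 with 2 mismatches, DDB2 at chr11:47214964-47214993 with 1, and AEN at chr15:88621301-88621330 with 2.
FAS: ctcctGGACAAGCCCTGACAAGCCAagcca
DDB2: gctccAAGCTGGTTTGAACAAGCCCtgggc
AEN: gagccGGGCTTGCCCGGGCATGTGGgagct
Of these 3 genes FAS rose in arrest, and DDB2 and AEN did not pass. DDB2, a subunit of the damage sensor for ultraviolet lesions, was at 23.1, 34.4 and 25.6 CPM in cycling and 24.9, 35.3 and 23.9 CPM in arrested libraries, which overlap fully. AEN, a nuclease of the apoptotic programme, was at 9.75 to 11.6 CPM in cycling and 13.6 to 20.9 CPM in arrested libraries.

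**Figure D2:**
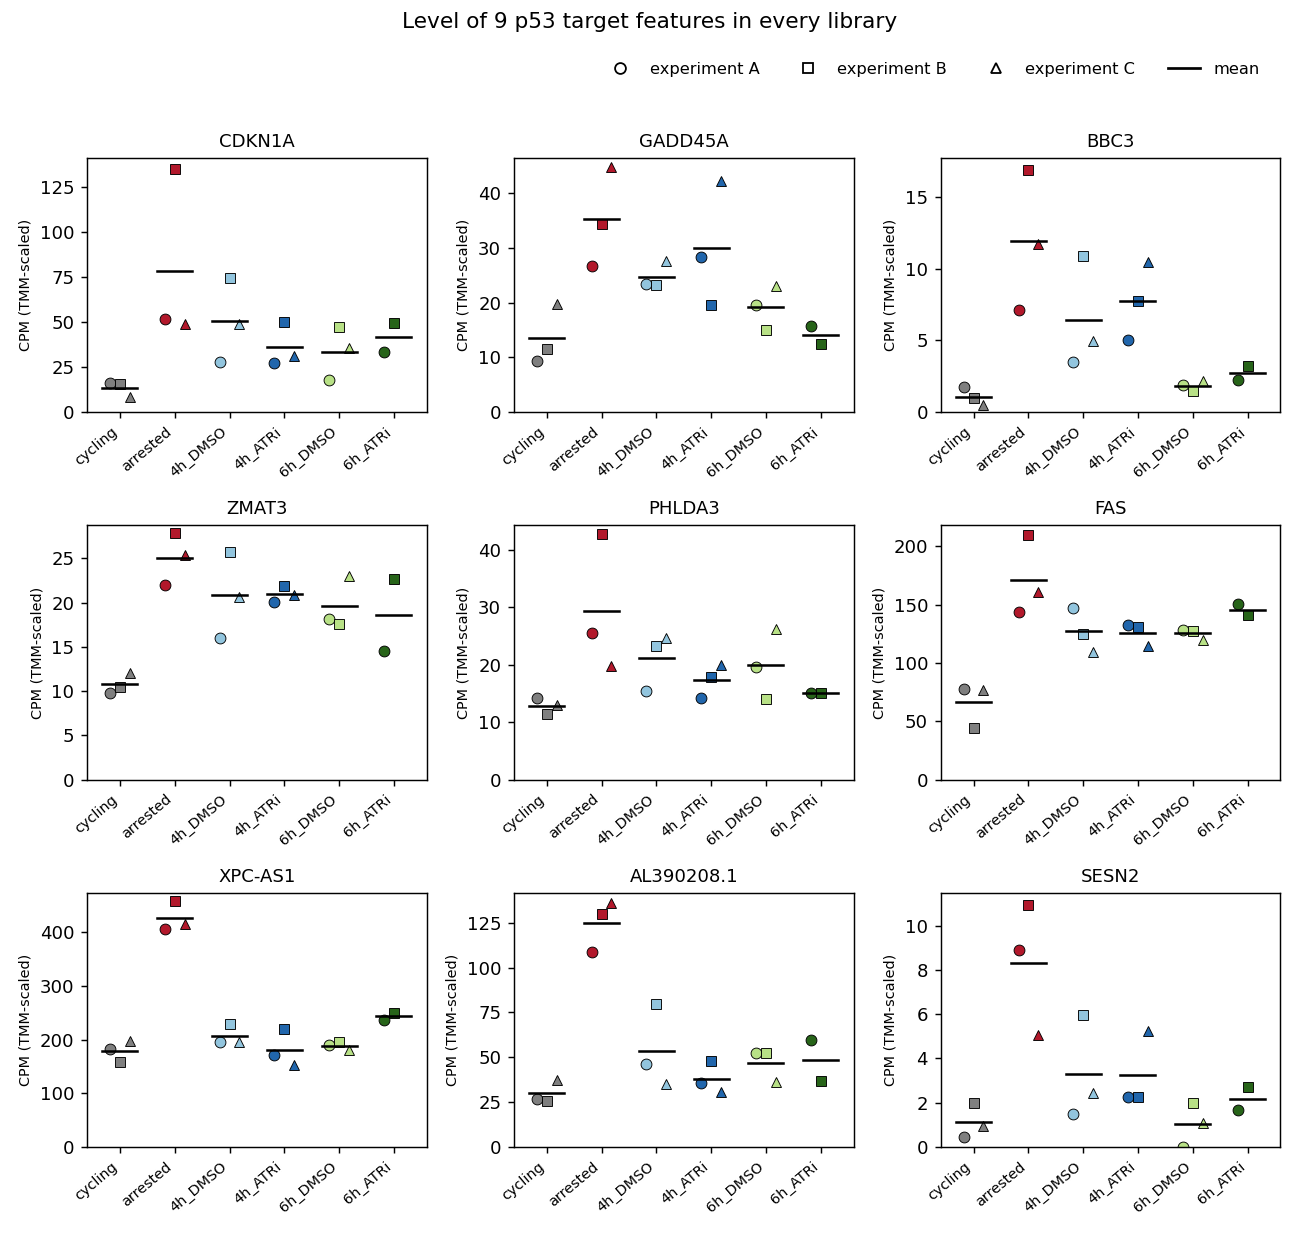
Scaled level in CPM (y axes, from 0) of 9 p53 target features in each library by condition (x axes), with circles, squares and triangles for experiments A, B and C and a line at the condition mean. XPC-AS1 and AL390208.1 stand highest in the 3 arrested libraries, at 406.4 to 458.8 CPM and 108.6 to 136.2 CPM, and return towards the cycling level at 4 h, while FAS stays above its cycling level.

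Of 5 DNA repair and nucleotide supply features 1 rose. XPC is the lesion sensor of global nucleotide excision repair, and the feature opposite to it, XPC-AS1, had more counts than XPC in 17 of 17 libraries. XPC-AS1 had 8015 counts in all and XPC 607, a ratio of 13.2, or 15.8 per exon length (59.2 against 3.72 CPM per kb). XPC-AS1 was at 183.6, 158.4 and 197.0 CPM in cycling libraries and at 406.4, 458.8 and 416.1 CPM in arrested ones. The conditions were far apart relative to their spread, and the log2 fold change of 1.25 ± 0.15 (adjusted p = 2.47e-05) had the smallest SE among the members. XPC itself was at 17.7, 19.4 and 13.5 CPM and then 26.1, 32.8 and 23.4 CPM, also without overlap, but did not pass (0.70 ± 0.29, adjusted p = 0.382). With the reads of both features summed, the pair rose by 1.21 ± 0.15 (adjusted p = 2.71e-05). RRM2B, the p53-induced subunit of ribonucleotide reductase, was at 1.33, 3.98 and 3.86 CPM in cycling and 6.53, 8.45 and 6.10 CPM in arrested libraries. It did not overlap and did not pass (1.20 ± 0.48, adjusted p = 0.369). POLH did not pass in arrest, but GTPBP2 on the strand opposite to it rose (0.78 ± 0.19, adjusted p = 0.0359). FAM228B, RHOBTB2 and RPLP2, opposite to TP53I3, TNFRSF10B and PIDD1, did not pass (0.66, 0.39 and 0.29, adjusted p = 0.15, 0.486 and 0.775). The part of these partners in the levels of the members was not tested.

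The metabolic and stress members included the sestrins, antioxidant proteins that restrain mTORC1, and 1 of 4 measured features rose. SESN1 itself was almost unread, at 0.443 to 2.49 CPM in cycling and 0 to 4.97 CPM in arrested libraries. AL390208.1, on the other strand and sharing 363 bases with SESN1, had 1931 counts against 58, more than SESN1 in 17 of 17 libraries and 265 times as many per exon length. AL390208.1 was at 26.6, 25.9 and 37.2 CPM in cycling libraries and at 108.6, 129.7 and 136.2 CPM in arrested ones. The libraries did not overlap, and the log2 fold change was 2.06 ± 0.26 (adjusted p = 7.26e-05), or 2.03 ± 0.25 (adjusted p = 3.16e-05) for the summed pair.

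SESN2 has no opposite feature and few reads. It was at 0.443, 1.99 and 0.966 CPM in cycling and 8.90, 10.9 and 5.08 CPM in arrested libraries, and was not called (2.83 ± 0.78, adjusted p = 0.0893) except by the blocked fit (0.0024) and with no filter on low counts (0.0223). FDXR, the ferredoxin reductase of mitochondria, had 1.77, 1.99 and 3.38 CPM and then 6.53, 19.9 and 12.7 CPM, without overlap. It was not called in the unblocked fit (2.44 ± 0.75, adjusted p = 0.192), but was by the blocked fit (7.68e-05), by DESeq2 (0.0401) and with no filter on low counts (4.54e-04). TIGAR, a phosphatase that restrains glycolysis, ran from 0.996 to 1.93 CPM in cycling and from 1.52 to 6.53 CPM in arrested libraries, and SPATA18, a mitochondrial quality control protein, was never above 2.97 CPM. With the block 13 members rose in arrest, against 2.81% of all features: the 8 named first and SESN2, BAX, BTG2, FDXR and CCNG1. BTG2 passed the filter on low counts through 1 arrested and 1 other library. Its selection was therefore tilted towards a higher level in arrest, and its call is not independent of that selection. The other members, RPS27L, a ribosomal protein paralogue, and TRIM22, an interferon-inducible ubiquitin ligase, overlapped between the conditions.

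**Figure D3:**
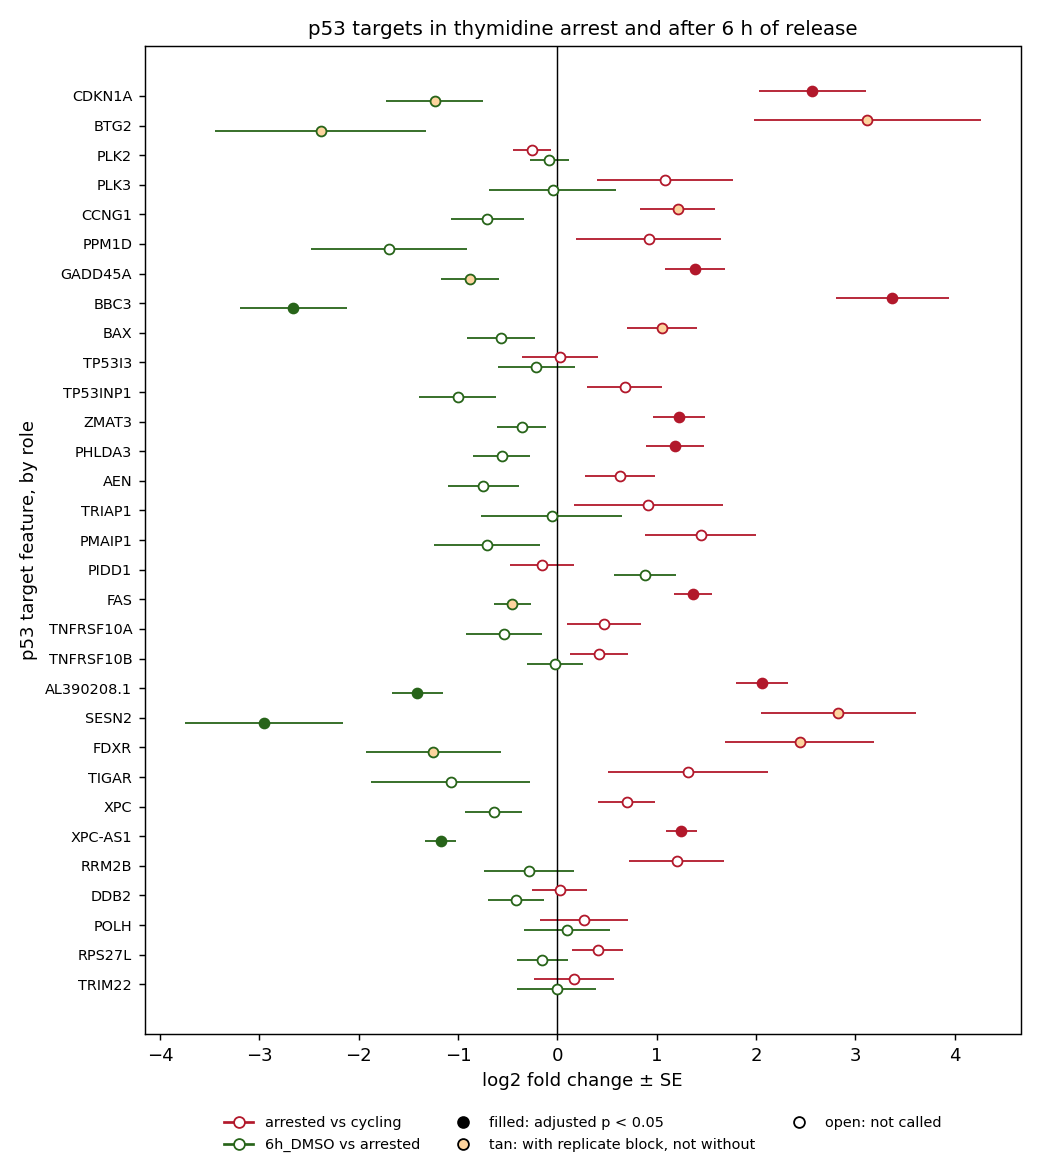
Log2 fold change with its SE (x axis) of the 31 measured p53 target features (y axis) in arrested against cycling cells (red) and in 6h_DMSO against arrested cells (green). Filled points passed edgeR's quasi-likelihood test at an adjusted p under 0.05, tan points passed with the experiments as a block and not without it, and open points did not pass; 29 of 31 lie above 0 for arrest and 29 of 31 below 0 for release.

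Release into late S phase was followed by comparing 4h_DMSO with arrested cells. This comparison shares the arrested libraries with the one above, so a high arrested library moves both. At 4 h 2 members fell, XPC-AS1 and AL390208.1, and 0 rose, where 0.326% of all features fell and 0.415% rose. Members were below 0 on the log2 scale in 27 of 31 cases, where 50.2% of all features were above 0. The median was -0.45 (all features 0.00), and the DMSO libraries lay wholly below the arrested ones for 8 members, against 6.85% of all features. XPC-AS1 fell to 195.2, 229.9 and 195.9 CPM, below every arrested library (-1.05 ± 0.15, adjusted p = 4.97e-04). AL390208.1 fell to 46.4, 79.8 and 35.0 CPM, also below every arrested library (-1.22 ± 0.25, adjusted p = 0.0221). Without experiment B 3 members fell at 4 h, POLH being the addition (-1.80, adjusted p = 0.0304), against 1.4% of all features. The call of AL390208.1 was lost without arrested A (0.0514), arrested C (0.130), 4h_DMSO A (0.101) or 4h_DMSO C (0.160).

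With the block 4 members fell at 4 h, against 2.52% of all features. The additions were CDKN1A, at 28.0, 74.3 and 48.7 CPM (-0.64 ± 0.47, adjusted p = 0.774, and 0.043 with the block), and FAS, at 146.7, 124.8 and 109.3 CPM (-0.44 ± 0.18, adjusted p = 0.411, and 0.0306 with it). CDKN1A overlapped with arrested cells across experiments, was lower than its arrested partner in A and B, and in C differed little (48.7 against 48.8 CPM). FAS was slightly higher than arrested in A and lower in B and C. At an unadjusted p under 0.05 but not adjusted were TP53INP1, an autophagy and cell death cofactor of p53 (-1.06, adjusted p = 0.284), POLH, the translesion polymerase eta (-1.16, 0.39), and PMAIP1 (-1.37, 0.376). BBC3 had 3.49, 10.9 and 4.92 CPM, overlapping the arrested libraries (-0.89, adjusted p = 0.56). Differences from arrest were -0.58 for XPC, -0.41 for BTG2, -0.66 for CCNG1, -0.94 for PPM1D and -0.20 for RRM2B, none of which passed.

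By 6 h, in G2, 4 members were lower than in arrest: BBC3, SESN2, XPC-AS1 and AL390208.1, and 0 were higher, where 1.06% of all features fell and 1.27% rose. DESeq2 called 2, XPC-AS1 and AL390208.1, where it called 1.28% of all features lower, and gave BBC3 and SESN2 no adjusted p. Without experiment B edgeR called 5 lower, against 2.82% of all features. The median log2 fold change was -0.57 (all features -0.01), 29 of 31 were below 0, where 48.9% of all features were above it, and 12 members had 6h_DMSO libraries wholly below the arrested ones, against 8.26%. BBC3 was at 1.86, 1.51 and 2.19 CPM, no longer overlapping arrested cells and overlapping the cycling range (-2.66 ± 0.54, adjusted p = 0.00463). MIR3190 opposite to it fell as well (-3.26 ± 0.73, adjusted p = 0.012). SESN2 was at 0, 2.01 and 1.10 CPM (-2.96 ± 0.80, adjusted p = 0.0446), a call on few reads. It was lost without arrested A (0.144), arrested B (0.153), arrested C (0.0715), 6h_DMSO A (0.192) or 6h_DMSO C (0.158).

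XPC-AS1 stood at 190.2, 196.4 and 180.3 CPM at 6 h and AL390208.1 at 52.2, 52.2 and 36.2 CPM, both below every arrested library. On the log2 scale they fell, with -1.18 ± 0.15 (adjusted p = 3.23e-05) and -1.41 ± 0.26 (adjusted p = 0.00242). XPC, at 21.0, 13.1 and 18.6 CPM, had -0.64 (adjusted p = 0.349), and the summed XPC and SESN1 pairs fell by 1.14 (adjusted p = 3.59e-05) and 1.39 (adjusted p = 0.00152). SESN1 alone had 1.00 to 2.19 CPM and GDF15 had 0 counts.

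With the block 9 members fell at 6 h, against 3.94% of all features. CDKN1A was at 17.7, 47.2 and 35.6 CPM, lower than its arrested partner in each experiment (-1.23 ± 0.49, adjusted p = 0.31, 3.15e-06 with the block and 0.0157 without experiment B). GADD45A, at 19.6, 15.1 and 23.0 CPM, lay below every arrested library (-0.88 ± 0.29, adjusted p = 0.133, and 0.00658). FAS lay at 128.2, 127.6 and 120.0 CPM, below every arrested library by a small margin (-0.45 ± 0.18, adjusted p = 0.275, and 0.0157). BTG2 (-2.38 ± 1.07, adjusted p = 0.348, and 0.0467) and FDXR (-1.25 ± 0.68, adjusted p = 0.509, and 0.031) completed the 9. The selection of BTG2 was tilted towards a higher level in arrest, so its fall from arrest is not independent of that selection.

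Other members at an unadjusted p under 0.05 at 6 h were XPC, with the value above, TP53INP1 (-1.001, adjusted p = 0.235), AEN (-0.74, 0.409), PPM1D (-1.69, 0.383) and PIDD1. The selection of PPM1D had the same tilt as that of BTG2. PIDD1, a death domain scaffold for caspase-2, was the exception in direction. It had 9.49, 10.4 and 8.64 CPM in arrested and 18.2, 15.6 and 19.2 CPM in 6h_DMSO libraries, with no overlap (0.88 ± 0.31, adjusted p = 0.174). PIDD1 shares 107 bases with the ribosomal protein gene RPLP2, which differed by 0.00 ± 0.23 in the same comparison. CCNG1 (-0.71) and RRM2B (-0.29) did not pass.

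Between 4 h and 6 h in DMSO, 0 of 31 members were called by edgeR without or with the block, or by DESeq2. Of all features these called 0.0814%, 1.04% and 0.207%. An unadjusted p under 0.05 was reached by BBC3 (-1.77 ± 0.56, adjusted p = 0.504) and by POLH (1.26 ± 0.48, adjusted p = 0.76). POLH was at 0.499, 7.43 and 5.41 CPM at 4 h and at 10.3, 10.05 and 12.1 CPM at 6 h, so the 1 read in 4h_DMSO A weighs on it. From 4 h to 6 h the difference was -0.59 for CDKN1A, -1.97 for BTG2, -0.02 for FAS, -0.06 for XPC, -0.13 for XPC-AS1, -0.19 for AL390208.1, -0.05 for CCNG1, -0.75 for PPM1D and -0.08 for RRM2B.

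Comparison of released with cycling cells, which shares libraries with the comparisons above, showed which members were above the cycling level after the block was lifted. At 4 h FAS and BBC3 were higher, 2 of 31 against 0.466% of all features, and at 6 h FAS alone, 1 of 31 against 0.489%. FAS exceeded every cycling library in every DMSO library, by 0.93 ± 0.19 at 4 h (adjusted p = 0.0108) and 0.91 ± 0.19 at 6 h (adjusted p = 0.0147). Without cycling B these became 0.75 (0.0668) and 0.74 (0.0879), and at 6 h the call was also lost without 6h_DMSO A (0.0551) or 6h_DMSO B (0.0503). ACTA2 opposite to FAS differed from cycling by 0.67 ± 0.37 at 4 h (adjusted p = 0.585) and 0.93 ± 0.37 at 6 h (adjusted p = 0.318). BBC3 at 4 h was higher by 2.48 ± 0.60 (adjusted p = 0.0389), and at 6 h differed by 0.72. Its 4 h call was lost without cycling A (0.0841), cycling B (0.119), cycling C (0.184), 4h_DMSO B (0.257), 4h_DMSO C (0.0666) or experiment B (0.243).

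With the block 7 members were higher than in cycling cells at 4 h, against 2.64% of all features, and 1 was lower, against 3.23%. Beside FAS and BBC3 these were CDKN1A (1.92, adjusted p = 0.154, and 1.19e-09 with the block), AL390208.1 (0.84, 0.166 and 0.0263), ZMAT3 (0.95, 0.0828 and 0.0176), FDXR (1.96, 0.35 and 0.00604) and GADD45A (0.87, 0.226 and 0.0125). The lower one was PLK2 (-0.47, adjusted p = 0.352, and 0.0391). CDKN1A was also called at 4 h by DESeq2 (7.73e-04), with no filter on low counts (0.00331) and without experiment B (3.9e-06), and at 6 h without experiment B (0.0121). At 4 h AL390208.1 (0.0303) and FDXR (0.019) were called with no filter, and ZMAT3 without 4h_DMSO A (0.0444). At 6 h the block added CDKN1A (1.33, 0.412 and 8.45e-05) and ZMAT3 (0.86, 0.14 and 0.0378), giving 3 against 2.78%. Every DMSO library of ZMAT3, at 16.0 to 25.8 CPM, lay above the cycling libraries.

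At an unadjusted p under 0.05 alone, 4h_DMSO differed from cycling cells for BAX (0.88), BTG2 (2.71), RRM2B (1.00), TNFRSF10B (0.60) and PHLDA3 (0.71). At 6 h this held for AL390208.1 (0.65), PHLDA3 (0.62) and PIDD1 (0.73). XPC-AS1, in contrast with FAS, was near its cycling level at 4 h (0.20, adjusted p = 0.729) and at 6 h (0.07). XPC had 0.12 and 0.06, CCNG1 0.55 and 0.50, PPM1D -0.02 and -0.77 at 4 h and 6 h, and BTG2 and RRM2B had 0.74 and 0.91 at 6 h. The median over the 31 members was 0.55 at 4 h and 0.49 at 6 h.

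Comparison of the inhibitor with DMSO asked which of these transcripts depend on ATR during S phase and G2. At 4 h 0 of 31 members were called by edgeR, where 0.311% of all features were, and 1 was at an unadjusted p under 0.05, against 5.6%. DESeq2 called 0 as well, against 0.444%. The median log2 fold change was -0.02 (all features -0.01), with 12 members above and 19 below 0, where 49.1% of all features were above it, and the median within experiments A, B and C was 0.17, -0.45 and 0.06. The member at an unadjusted p under 0.05 was POLH, which was at 8.21, 18.2 and 10.4 CPM with the inhibitor and 0.499, 7.43 and 5.41 CPM with DMSO. The inhibitor libraries were all higher, by 1.45 ± 0.47 (adjusted p = 0.399, and 0.0199 with the block, where 1.2% of all features rose). Without experiment B 0 members were called at 4 h or 6 h, with or without the block, where 0.638% and 0.188% of all features were called without it and 0.915% and 0.195% with it, so neither POLH nor the blocked call of PLK2 at 6 h was among them. POLH shares 4 bases with GTPBP2 on the other strand, which had 65.0 CPM with DMSO and 91.97 CPM with the inhibitor (0.50 ± 0.19, adjusted p = 0.615).

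The members with the clearest change in arrest did not pass at 4 h. CDKN1A had 27.4, 50.2 and 30.9 CPM with the inhibitor, within or just under the DMSO range (-0.48 ± 0.49). FAS, at 132.7, 130.5 and 114.9 CPM, differed from DMSO by -0.01 ± 0.19, and XPC-AS1, at 172.4, 219.4 and 152.4 CPM, by -0.19 ± 0.15. For BBC3 the difference was 0.26 ± 0.47 and for AL390208.1 -0.49 ± 0.26. It was -1.01 for BTG2, -0.50 for XPC, 0.06 for CCNG1, -0.02 for PPM1D and -0.40 for RRM2B. Of the members given with an SE here, CDKN1A and BBC3 had the widest. SESN1 had 0.456 to 1.82 CPM and GDF15 0 to 0.912 CPM with the inhibitor at 4 h.

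**Figure D4:**
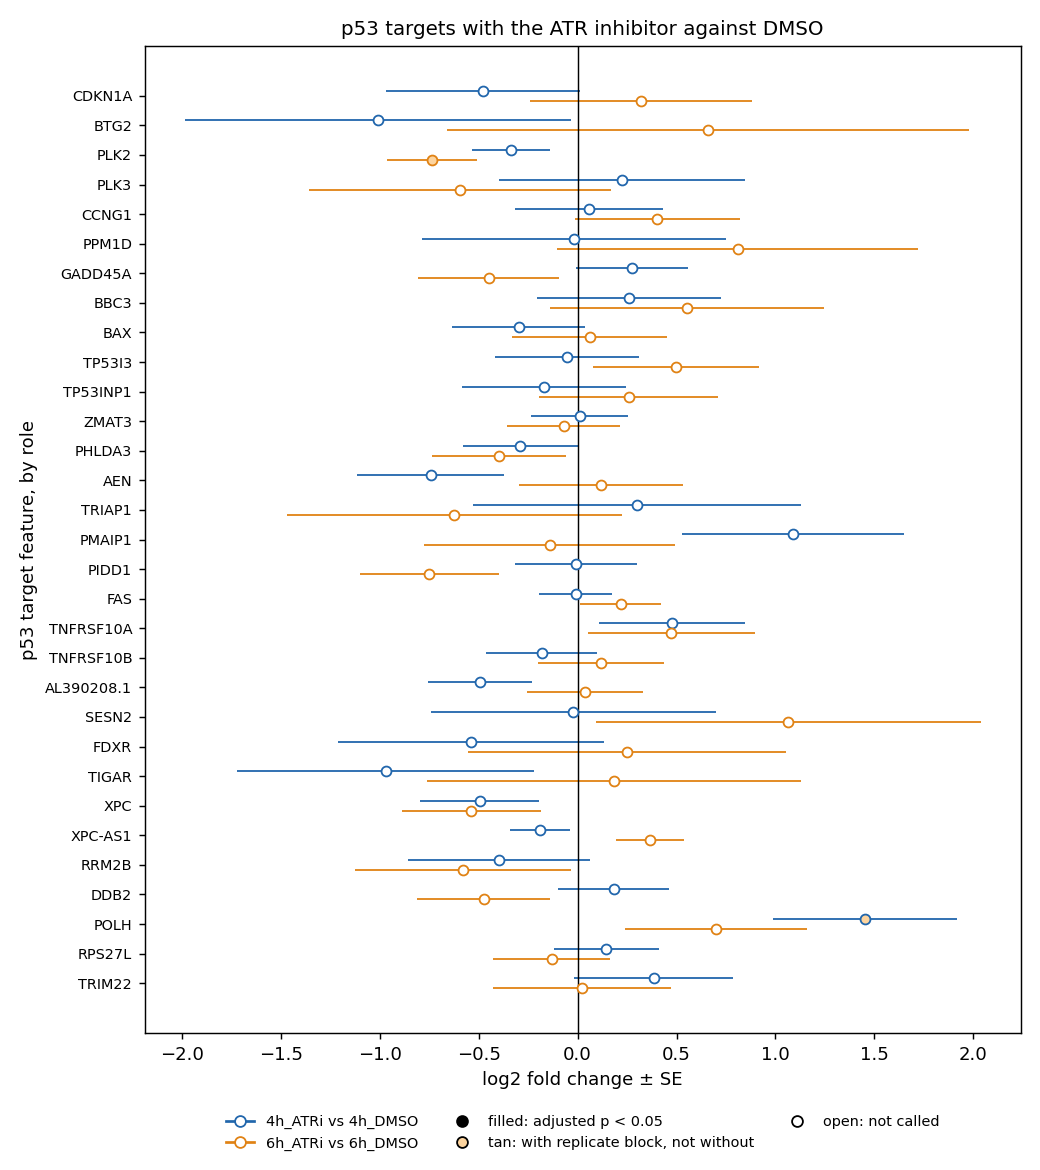
Log2 fold change with its SE (x axis) of the 31 measured p53 target features (y axis), inhibitor against DMSO at 4 h (blue) and at 6 h (orange). Tan points passed an adjusted p under 0.05 with the experiments as a block and not without it (POLH at 4 h, PLK2 at 6 h), and open points did not pass; 0 points passed without the block.

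At 6 h, with 2 inhibitor libraries, 0 of 31 members were called by edgeR, where 0.0074% of all features were, and DESeq2 called 0, against 0.104%. Of the 31, 3 were at an unadjusted p under 0.05, against 4.8% of all features, and the median was 0.12. PLK2 was at 54.9 and 39.9 CPM with the inhibitor and at 85.3, 61.3 and 90.4 CPM with DMSO. Both inhibitor libraries were lower than all DMSO libraries, by -0.74 ± 0.23 (adjusted p = 0.741, and 0.045 with the block, where 0.126% of all features fell). XPC-AS1 was at 237.4 and 249.5 CPM against 190.2, 196.4 and 180.3 CPM, higher without overlap but not called (0.37 ± 0.17, adjusted p = 1.00). PIDD1 was at 13.4 and 7.55 CPM against 15.6 to 19.2 CPM (-0.75 ± 0.35, adjusted p = 1.00).

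CDKN1A had 33.6 and 49.6 CPM with the inhibitor at 6 h (0.32 ± 0.56), overlapping DMSO. FAS had 150.6 and 140.7 CPM (0.22 ± 0.21). The difference was 0.55 for BBC3, 0.66 for BTG2, -0.54 for XPC, 0.04 for AL390208.1, 0.40 for CCNG1, 0.81 for PPM1D and -0.58 for RRM2B. The response at 6 h differed from that at 4 h for 0 members with or without the block and by DESeq2, where 0 features were called without the block or by DESeq2 and 0.0444% with it. XPC-AS1 alone was at an unadjusted p under 0.05 in that test (0.56 ± 0.23, against 2.97% of all features). For the other members followed throughout, the difference of responses was 0.80 for CDKN1A, 1.67 for BTG2, 0.29 for BBC3, 0.23 for FAS, -0.04 for XPC, 0.53 for AL390208.1, 0.34 for CCNG1, 0.83 for PPM1D and -0.18 for RRM2B.

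Other genes of the pathway were taken from lists of 16 regulators of p53, all measured, and 36 further targets, 27 of them measured. Of the regulators, MDM2 rose in arrest, from 22.4 to 57.1 CPM (1.35 ± 0.25, adjusted p = 0.00316), and 15 did not pass, where 0.6% of all features rose. The median over the regulators was -0.17. Of the further targets 1 rose in arrest, LIF, a cytokine (1.14 ± 0.28, adjusted p = 0.0444). With the block 4 rose, against 2.81% of all features: LIF, DRAM1 (1.51), CMBL (1.15) and RNF19B (1.91). The median was 0.29, and 23 of 27 were above 0, where 48.6% of all features were. MDM2, LIF and DRAM1 have features on the opposite strand, and CMBL and RNF19B have none.

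In release, the regulator KAT5, an acetyltransferase (-0.87, adjusted p = 0.0229), and LIF among the further targets (-1.20, adjusted p = 0.0208) were lower at 6 h than in arrest. Of all features 1.06% fell in that comparison. Against cycling cells KAT5 (-0.90, adjusted p = 0.0317) and TP53BP1, a scaffold of the double-strand break response (-0.76, adjusted p = 0.0321), were lower at 6 h. With the block MDM2 was also lower than in arrest at 4 h (-0.64, adjusted p = 0.29, and 0.0271 with it) and at 6 h (-0.86, 0.0544 and 8.76e-04), and above cycling cells at 4 h (0.71, 0.235 and 0.0206). The block also called KAT5 and TP53BP1 lower at 4 h against both arrested and cycling cells, and TP53BP1 and WRAP53 lower at 6 h against arrest. Of all features it called 2.52% and 3.23% lower at 4 h against arrested and cycling cells, and 3.94% lower at 6 h against arrest. It called LIF, CYFIP2 and E2F7 higher at 4 h than in cycling cells, and LIF lower at 6 h than at 4 h. Of all features it called 2.64% higher in the former comparison and 1.04% in either direction in the latter. KAT5, TP53BP1, WRAP53 and CYFIP2 have features on the opposite strand. With the inhibitor 0 features of either list were called at 4 h or 6 h, with or without the block. Without the block 0.311% of all features were called at 4 h and 0.0074% at 6 h, so few calls were to be had in any list.

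In the authors' deposited table, 7 members were higher in arrested than in cycling cells among the 22 with an adjusted p: CDKN1A, FAS, AL390208.1, XPC-AS1, ZMAT3, PHLDA3 and GADD45A. For CDKN1A the authors' deposited table gives a log2 fold change of 1.77 (adjusted p = 2.08e-06), and for FAS 1.27 (adjusted p = 2.57e-09). In the same deposited table of the authors AL390208.1 and XPC-AS1 are higher in arrest than at either release time, where 14 members have an adjusted p. Between inhibitor and DMSO 0 members differ, among the 18 with an adjusted p at 4 h and the 9 at 6 h. The other members were given no adjusted p there. The share of all features called in that table is not given here. Against cycling cells the authors' deposited table calls CDKN1A (1.29, adjusted p = 0.00191) and FAS (0.87, adjusted p = 3.29e-04) higher in 4h_DMSO. It calls FAS (0.86, adjusted p = 3.96e-04) higher in 6h_DMSO. In each of these 14 members have an adjusted p.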

How the data were processed

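The submitters' processing notes name TopHat, HTSeq, DESeq2 and the build GRCh37; tool versions, annotation and strandedness of counting were not given in the sources used here. The authors deposited whole-number read counts per gene, not normalised, and a table of log2 fold changes with adjusted p-values. Per the labels' protocols, Trizol RNA went into KAPA Stranded mRNA-Seq libraries. Symbols and opposite-strand overlaps came from GENCODE 29 (GRCh38), and promoter sequences from RefSeq.

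The counts were fitted with edgeR 4.0.16 in R 4.3.3 (filterByExpr with a minimum count of 10 and total of 15, 13510 features kept; TMM; robust quasi-likelihood test; 17 libraries, 1 mean per condition). A call was a Benjamini-Hochberg adjusted p under 0.05 over all features. SE are of log2 fold changes, and SD is over libraries. CPM are TMM-scaled. DESeq2 1.42.0 was an alternative, beside size factors, no filter, each library left out, experiment B left out, opposite-strand pairs summed, and experiments as a block. The test was checked on simulated data.

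The design text names 3 independent experiments, and A, B and C were read as these. Deviations of libraries with the same letter correlated across genes at 0.081 to 0.534 (23 pairs), and those with other letters at -0.455 to 0.262 (46 pairs). Deviations from a condition mean sum to 0, which by itself pushes values for other letters below 0. In places A with C reached the values of the same letters. For 4h_DMSO A with arrested C it was 0.262, against 0.203 for A with A and 0.142 for C with C. These correlations cannot tell A from C as separate experiments. The blocked value is given where it changes a call. Experiment C of 6h_ATRi was not analysed here. P-values without the block measure the spread between libraries within the conditions, which come from these experiments. Those with the block measure the spread left once a constant shift of each experiment is removed.

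The members, lists and tests were chosen with earlier results of these data known. Named in each comparison are members at an unadjusted p under 0.05, members called by either fit, and CDKN1A, BTG2, GDF15, BBC3, FAS, XPC, XPC-AS1, SESN1, AL390208.1, CCNG1, PPM1D and RRM2B. Results of some genes of the other lists are not reported here.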

Additional observations from a re-analysis of the deposited data

How the results depend on the processing

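Over the alternatives, 0 results that were called in the main fit or in the alternative reversed direction. A change of sign in a value called in neither was not counted as a reversal. FAS, BBC3, XPC-AS1 and AL390208.1 in arrest, XPC-AS1 at both release times, and BBC3 and AL390208.1 at 6 h against arrest were called in every alternative that gave an adjusted p. With the replicate block the number of members called was 1 and 1 for the inhibitor at 4 h and 6 h, 4 and 9 for release against arrest at 4 h and 6 h, 13 for arrest, and 8 and 3 for release against cycling cells at 4 h and 6 h; it stayed at 0 between 4 h and 6 h in DMSO. DESeq2 called 2 at 6 h against arrest and gave no adjusted p to low genes such as BBC3 and SESN2, and with no filter 5 were called at 4 h against cycling cells. With 1 library left out, 4 to 7 were called in arrest, 1 to 2 and 3 to 4 at 4 h and 6 h against arrest, and 0 to 3 and 0 to 1 at 4 h and 6 h against cycling cells. Without experiment B 2 were called at 6 h against cycling cells, and the replicate block without experiment B, chosen after seeing the data, gave 1 between 4 h and 6 h (POLH) and 2 at 6 h against cycling cells. The mean log2 CPM moved with the prior count: at 0.5 it was 3.07 in cycling, 3.58 in 4h_ATRi and 3.42 in 6h_DMSO, and at 5 it was 3.62 in cycling, 3.96 in 4h_ATRi, 3.88 in 6h_DMSO and 3.89 in 6h_ATRi. Over the 16 members with at least 10 counts in every library it was 4.55, 5.33, 4.99, 4.88, 4.9 and 4.8 in cycling, arrested, 4h_DMSO, 4h_ATRi, 6h_DMSO and 6h_ATRi, and over the 24 with a mean of at least 10 counts, chosen after seeing the data, 3.87, 4.75, 4.3, 4.26, 4.2 and 4.21. Of 1527 other values 1372 kept their direction and side of the threshold or moved within the spread, 43 gained a call, 37 lost one and 75 moved. Low counts limit BTG2, PMAIP1, SESN2, RRM2B and PPM1D, for which a change that missed the threshold cannot be called absent.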

Other observations

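FAS and XPC-AS1 both rose in arrest, and their ratio after release is given as values only. It was chosen after seeing the data, and an exact test of 3 against 3 libraries cannot reach 0.05. The log2 ratio of FAS to XPC-AS1 was -1.48 ± 0.32 in cycling and -1.33 ± 0.19 in arrested cells (SD, n = 3 each), and -0.71 ± 0.26 in 4h_DMSO and -0.59 ± 0.03 in 6h_DMSO. With the inhibitor the ratio was -0.51 ± 0.21 at 4 h (n = 3) and -0.74 ± 0.12 at 6 h (n = 2). Both features have a partner on the opposite strand, and the part of those partners in the ratio was not tested.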
